A study of Mus musculus with 20 samples.

Results

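The mRNA of 10 apolipoprotein genes was followed in liver and kidney of mice that received a mixture of small molecules or its vehicle. The genes were chosen by name: Apoa1, Apoa2, Apoa4, Apoa5, Apob, Apoc1, Apoc3, Apoe, Apoh and Apom. Each symbol matched 1 identifier of the count table, so that the set made up 10 of 57010 listed genes. All mice were male UM-HET3 mice, 12 months old, from a multi-parent cross in which every animal has its own genotype. The treated group (7c) received repsox, tranylcypromine, DZNep, CHIR99021, forskolin and TTNPB at 0.1 mg/kg per day each and valproate at 1 mg/kg per day for 28 days from implanted osmotic minipumps. The vehicle group carried the same pumps filled with 50% DMSO and 50% PEG300. Liver and kidney were sequenced from 6 7c and 4 vehicle mice, which gave 20 libraries. These were animals of 1 sex and 1 age, and no untreated group without a pump was analysed here. The comparisons asked whether apolipoprotein mRNA differed between 7c and vehicle in each organ, and how the 2 organs differed in the vehicle mice.

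Apolipoproteins coat the lipid particles that carry cholesterol and triglyceride through the blood. Apob is the scaffold of the very low density lipoprotein particle that the liver secretes, while Apoa1 and Apoa2 are the main proteins of high density lipoprotein. The smaller exchangeable proteins move between particles and steer their breakdown and uptake: Apoe is the ligand for remnant uptake, Apoc3 and Apoc1 slow clearance, and Apoa5 favours lipolysis. Hepatocytes make most of the plasma pool. Kidney proximal tubule cells are known for taking filtered apolipoproteins back up through megalin (Lrp2) and cubilin (Cubn), and for making Apom, the carrier of sphingosine 1-phosphate on high density lipoprotein.

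The genes lay at these places of GRCm39 in GENCODE release 39 for the mouse, all annotated as protein-coding. Apoa1 (chr9:46139878-46142212), Apoc3 (chr9:46142527-46146934), Apoa4 (chr9:46151994-46154757) and Apoa5 (chr9:46179931-46183217) formed a cluster of 43340 bases. Apoc1 (chr7:19422540-19427328) and Apoe (chr7:19430034-19434947) lay beside each other. Apoa2 (chr1:171049125-171053948), Apob (chr12:8027648-8066835), Apoh (chr11:108233964-108305232) and Apom (chr17:35347973-35351026) stood apart. Apoa2 overlaps Tomm40l, and Apoh overlaps Prkca, on the opposite strand. Apoa2, Apoa4, Apoa5, Apob, Apoe and Apoh overlap genes of non-coding RNA. Among those of Apoh, Gm11656 and Gm74380 lie on its own strand. The strand setting of the counting was not given in the sources used here, so reads of partners on the opposite strand cannot be told apart. Partners on the same strand would not be separated by any strand setting.

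The 250 bases before the first start listed by RefSeq (sequence table of GRCm38.p6, placed on GRCm39 by an exact match) are shown for the 2 genes with the largest differences among the 9 tested between 7c and vehicle kidneys and for the gene with the most similar levels in the 2 organs. Capitals mark matches, on either strand, to the nuclear receptor motif AGGTCA (also in the form GGGTCA, in the form AGTTCA and in the form GGTTCA), to the forkhead element TGTTTAC or its form TGTTTGC, and to the TATA box TATAAA. The windows are chr9:46139678-46139927 (plus strand) for Apoa1, chr1:171052373-171052622 (plus strand) for Apoa2 and chr17:35350778-35351027 (minus strand) for Apom. GENCODE lets some transcripts of Apoa1 and Apom begin within these windows. The Apoa2 window lies wholly inside the annotated gene, since some of its transcripts begin farther upstream.
Apoa1: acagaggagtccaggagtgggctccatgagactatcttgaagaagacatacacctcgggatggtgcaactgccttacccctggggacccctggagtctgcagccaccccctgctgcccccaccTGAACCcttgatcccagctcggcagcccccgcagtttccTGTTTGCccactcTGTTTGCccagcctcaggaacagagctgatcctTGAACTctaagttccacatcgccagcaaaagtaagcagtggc
Apoa2: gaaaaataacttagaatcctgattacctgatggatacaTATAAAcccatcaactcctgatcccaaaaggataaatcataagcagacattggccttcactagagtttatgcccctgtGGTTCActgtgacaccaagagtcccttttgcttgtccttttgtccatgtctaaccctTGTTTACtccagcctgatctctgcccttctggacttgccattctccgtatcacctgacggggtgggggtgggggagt
Apom: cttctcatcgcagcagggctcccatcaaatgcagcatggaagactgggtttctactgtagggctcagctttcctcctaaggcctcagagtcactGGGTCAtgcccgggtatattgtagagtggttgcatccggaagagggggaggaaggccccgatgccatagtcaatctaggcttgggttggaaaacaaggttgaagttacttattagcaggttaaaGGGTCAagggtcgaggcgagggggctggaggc
A window was found for 8 of the 10 genes, all but Apoc1 and Apoc3. The nuclear receptor motif stood in 8 of these 8 windows, against 38.4% of 27025 windows of all genes. Forkhead letters stood in 5 of 8, among them Apoa1 and Apoa2 but not Apom, against 7.22% of all windows. The CREB element TGACGTCA, the TCF/LEF element CTTTGAT and the HNF1 motif GTTAAT stood in 0 of 8, against 1.62%, 3.23% and 6.52% of all windows. These letters were chosen after the sequences had been read, so the shares are descriptions, and a match is not a site.

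Total counts per library were 28383359 to 34153084 in liver and 27855849 to 64872451 in kidney. Of all values from 1 to 99 counts, 76.5% in liver and 76.4% in kidney were even numbers, so a count is often not a single fragment, and low counts carry less precision than their number. Summed hepatocyte markers were at 79095 to 110318 CPM (counts per 1000000 of the library, scaled with edgeR's TMM factors) in the livers. Summed kidney markers were at 36152 to 73193 CPM in the kidneys and at most 0.135 CPM in the livers. Thus the organ labels held in all 20 libraries. The liver of 7c replicate 6 also held skeletal muscle transcripts, at 606 summed CPM, where vehicle livers had at most 1.28 CPM. Without that library 0 of the 10 genes were called in liver as well. Libraries also differed in how short transcripts stood against long ones. This was measured as the median log2 deviation of genes under 1500 exon bases minus that of genes over 5000, and it lay at -0.24 to 0.30 over the livers and at -0.36 to 0.56 over the kidneys.

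Together the 10 genes held 3.93% to 5.01% of all liver counts and 0.0375% to 0.0828% of kidney counts. Apoe was the largest single part in both organs, with a median of 37.8% of the set's counts in liver and 42.8% in kidney. Per kilobase of exon, Apoa2 ranked 3rd of 22539 genes detected in vehicle liver, Apoe 6th and Apoa1 10th. In vehicle liver the order per kilobase (in CPM per kilobase) was Apoa2 at 12691 ± 952 (SD, n = 4), Apoe at 7262 ± 576, Apoa1 at 4978 ± 1040, Apoh at 1815 ± 184, Apoc1 at 1321 ± 95.9, Apoc3 at 674 ± 39.3, Apob at 316 ± 24.7, Apoa5 at 227 ± 21.5, Apom at 151 ± 36.3 and Apoa4 at 37.0 ± 11.9. No neighbours in this order overlapped over the 4 livers. In vehicle kidney the order per kilobase was different: Apom stood first at 157 ± 64.7 and Apoe next at 94.7 ± 47.0, and their ranges overlapped. Apoh followed at 16.8 ± 5.55 and Apoa2 at 13.1 ± 9.92, which also overlapped. Apob, Apoa1, Apoc3 and Apoc1 lay between 5.16 and 1.83, each overlapping with the next. Apoa4 at 0.731 ± 0.217 and Apoa5 at 0.121 ± 0.0542 were lowest, each below its neighbour in every vehicle kidney. Annotated exon lengths differ among the transcripts of a gene (their median over transcripts with a consensus coding sequence was used), so these orders are approximate.

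In the vehicle mice, 9 of the 10 genes were higher in liver than in kidney (edgeR quasi-likelihood test, Benjamini-Hochberg adjusted p at most 0.05), where 53.4% of 17245 genes tested were called in either direction. The log2 difference was 11.44 ± 0.31 (SE) for Apoa5, 11.23 ± 0.74 for Apoa1, 10.54 ± 0.60 for Apoa2 and 10.11 ± 0.39 for Apoc1. It was 8.56 ± 0.28 for Apoc3, 7.38 ± 0.31 for Apoh, 6.89 ± 0.38 for Apoe, 6.57 ± 0.37 for Apob and 6.29 ± 0.31 for Apoa4. The adjusted p of these 9 genes ran from 7.07e-10 to 2.62e-07. Apom was the exception, at 0.57 ± 0.27 (adjusted p = 0.0962, edgeR). Its 95% interval was -0.02 to 1.16. The sign of this value rests on the scaling between the organs: with total counts in place of TMM factors, chosen after seeing the data, Apom stood at -0.0014 and the median of all genes at -0.66, while the other 9 genes were still called. Without the kidney of vehicle replicate 2 and with TMM scaling, Apom passed the test (0.80, adjusted p = 0.0045, edgeR). Median log2 differences were 7.97 over the 10 genes and -0.06 over all genes tested.

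The kidney levels were set against the mean of the vehicle livers, with all 20 libraries scaled together by TMM. They were then split into a low and a higher range, a split chosen with the values in view. In vehicle kidneys Apoa5 stood at 0.0345% of the liver level, Apoa1 at 0.0415%, Apoa2 at 0.0672% and Apoc1 at 0.0900%. Of the 10 hepatocyte markers, 7 lay in much the same range: Cps1 at 0.0232%, Tat at 0.0260%, Fgb at 0.0295%, Ahsg at 0.0333%, Hpx at 0.0369%, Alb at 0.0397% and F2 at 0.0516%. The other genes of the set were higher, with Apoc3 at 0.264%, Apoh at 0.599%, Apoe at 0.845%, Apob at 1.05%, Apoa4 at 1.28% and Apom at 67.3%, a percentage that depends on the scaling in the same way. The 3 remaining hepatocyte markers stood among these, with Fga at 0.285%, Serpina1a at 0.752% and Ttr, the thyroid hormone carrier transthyretin, at 2.26%. Single vehicle kidneys of Serpina1a ran from 0.0734% to 1.49%, across both ranges. Saa4, an apolipoprotein outside the set, stood between the ranges at 0.132%. In such bulk samples fewer cells of a type and less RNA per cell cannot be told apart.

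**Figure D1:**
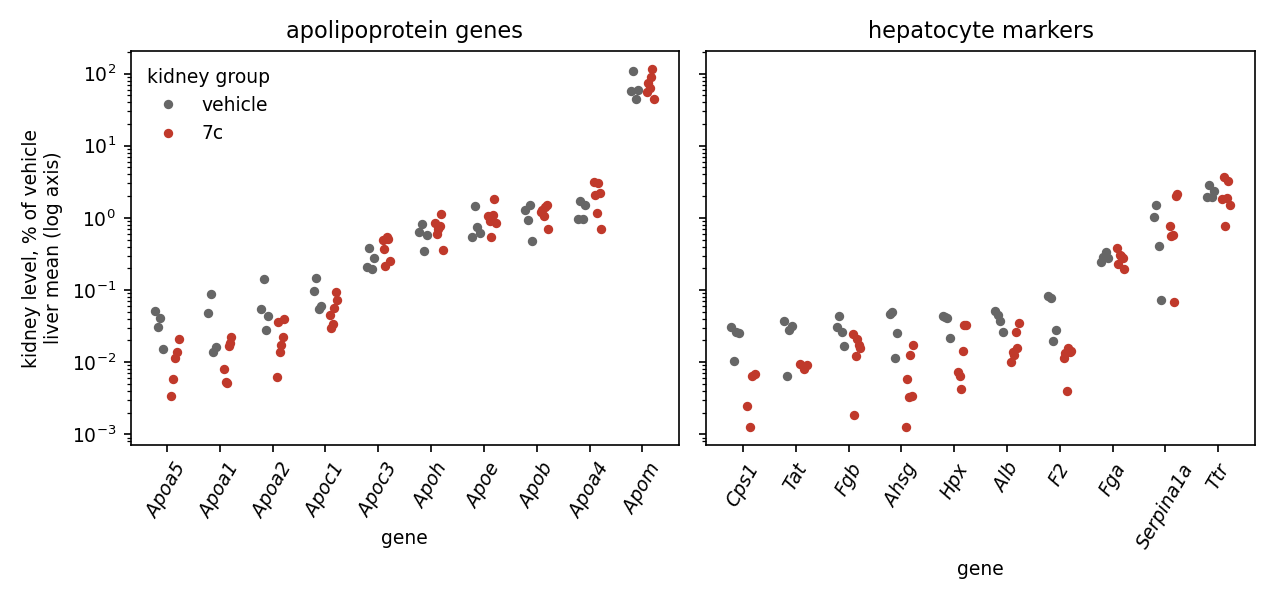
Level of each apolipoprotein gene (left) and each hepatocyte marker (right) in every kidney library as a percent of the vehicle liver mean, on a log axis; grey points are 4 vehicle and red points 6 7c kidneys, and libraries at 0 are not drawn. Apoa5, Apoa1, Apoa2 and Apoc1 lie with 7 of the hepatocyte markers, and Apom lies near the liver level.

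In liver, no gene of the 10 passed the test between 7c and vehicle, and all groups overlapped. The edgeR quasi-likelihood test called 0 of 10, with 0 of 10 at an unadjusted p under 0.05, and DESeq2, limma-voom and edgeR's likelihood ratio test also called 0. Over all genes 0.00666% were called (1 of 15012), and 565 had an unadjusted p under 0.05. The median log2 fold change was 0.09 over the 10 genes and 0.00 over all genes tested. All 10 adjusted p-values were 1.00 (edgeR).

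Of the high density lipoprotein genes, Apoa1 was at 8992, 6797, 5577 and 8423 CPM in the 4 vehicle livers and at 6383 to 8688 CPM (median 7993) in the 6 7c livers. The 7c livers all lay inside the vehicle range, and the log2 fold change was 0.07 ± 0.14 (SE, 95% interval -0.22 to 0.36). Apoa2 was at 7052, 6595, 7239 and 7896 CPM in vehicle and at 6792 to 9698 CPM (median 8145) in 7c livers. Here 5 of 6 7c livers lay above the vehicle range, with a log2 fold change of 0.19 ± 0.11 (unadjusted p = 0.093, edgeR). The exact permutation test over all 210 splits gave p = 0.0857 for Apoa2 (two-sided), and 0.437 after adjustment over the 19 tests of both organs. Apom was at 120 to 199 CPM in vehicle and 114 to 188 CPM in 7c livers, a log2 fold change of -0.16 ± 0.17. It was -0.27 without 7c replicate 3 and -0.01 without vehicle replicate 4.

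Apoe, the remnant ligand, was at 15995, 14233, 15833 and 17297 CPM in vehicle livers and at 13748 to 21375 CPM (median 17549) in 7c livers. The 7c livers reached past the vehicle range at both ends, with 3 of 6 above and 1 below it. The log2 fold change was 0.15 ± 0.13, and its 95% interval ran from -0.12 to 0.42. Apob was at 4385, 4002, 4842 and 4400 CPM in vehicle and at 3372 to 4507 CPM (median 3983) in 7c livers, with 3 of 6 below the vehicle range. Its log2 fold change was -0.15 ± 0.10 (95% interval -0.36 to 0.07). Among the genes that act on triglyceride clearance, log2 fold changes were 0.10 ± 0.11 for Apoc3, 0.17 ± 0.13 for Apoc1 and 0.05 ± 0.14 for Apoa5. Apoh, which encodes the phospholipid-binding beta-2-glycoprotein, stood at -0.04 ± 0.13. Apoa4, a protein of triglyceride-rich particles made mostly in the intestine, had the widest interval of the set, -0.45 to 0.89, around 0.22 ± 0.31. Its value was 0.06 without vehicle replicate 2 and 0.43 without vehicle replicate 4. Apoa4 ranged from 39.4 to 116 CPM over the 6 7c livers and from 41.7 to 94.3 CPM over the 4 vehicle livers.

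**Figure D2:**
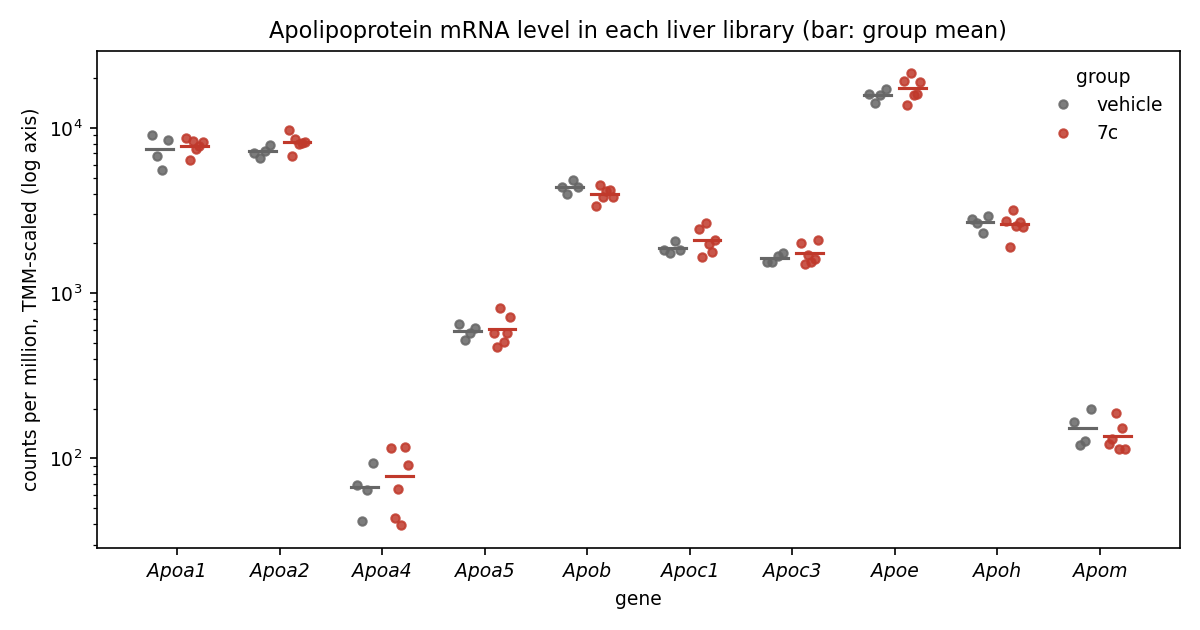
TMM-scaled CPM of the 10 genes in each liver library on a log axis; grey points are 4 vehicle and red points 6 7c livers, and bars are group means. The 2 groups overlap for every gene, and Apoe is highest at 13748 to 21375 CPM.

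In kidney, 9 of the 10 genes had enough counts to be tested, all but Apoa5. The edgeR quasi-likelihood test called 0 of 9, and DESeq2, limma-voom and the likelihood ratio test also called 0. Over all genes 0% were called (0 of 17749, against 18 by DESeq2, 14 by the likelihood ratio test and 2 by limma-voom), and 463 of these, or 2.61%, had an unadjusted p under 0.05. Of the 9 genes, 2 had such a p, Apoa1 and Apoa2. The adjusted p was 0.997 for all 9 (edgeR). The median log2 fold change was 0.17 over the 9 genes and -0.01 over all genes tested.

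Apoa1 was at 5.60, 10.03, 1.61 and 1.85 CPM in the 4 vehicle kidneys (214, 360, 60 and 53 counts) and at 0.588 to 2.55 CPM (median 1.39) in the 6 7c kidneys. The groups overlapped, with 3 of 6 7c kidneys below the vehicle range. The log2 fold change was -1.73 ± 0.55 (SE, unadjusted p = 0.00839, adjusted p = 0.997, edgeR). Apoa2 was at 6.12, 15.7, 3.10 and 4.89 CPM in vehicle kidneys and at 0.697 to 4.49 CPM (median 2.18) in 7c kidneys. All 6 7c kidneys lay below the vehicle mean of 7.45 CPM, and 4 of 6 lay below the vehicle range. Its log2 fold change was -1.58 ± 0.50 (unadjusted p = 0.00811, adjusted p = 0.997, edgeR). In the exact permutation test (two-sided, smallest possible p = 0.00476) Apoa2 had p = 0.0381 and Apoa1 p = 0.0714, and both were at 0.437 after adjustment over 19 tests. The kidney of vehicle replicate 2 was the highest for both genes. Without it the log2 fold changes shrank to -1.06 for Apoa1 and -0.91 for Apoa2.

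Apoc1 and Apoa5, the other 2 genes of the low range, also had lower mean values in 7c kidneys. Apoc1 was at 2.77, 4.23, 1.61 and 1.75 CPM in vehicle and at 0.840 to 2.69 CPM (median 1.45) in 7c kidneys. The groups overlapped, and its log2 fold change was -0.71 ± 0.38 (unadjusted p = 0.0808, edgeR). Without vehicle replicate 2 it shrank to -0.37. Apoa5 had 18, 10, 14 and 4 counts in vehicle kidneys and 0 to 8 counts in 7c kidneys. Of the 6 7c kidneys, 5 lay below the vehicle range in CPM. The 7c kidney at 0 counts, replicate 2, allows a level of up to 0.09 CPM, an upper limit for counting error only.

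Most hepatocyte markers also had lower fitted values in 7c kidneys. Of the 9 hepatocyte markers tested in kidney, 8 had lower and 1 had higher fitted values with 7c (median log2 fold change -1.08). Of these 9, 4 had an unadjusted p under 0.05 and 0 passed the adjusted edgeR quasi-likelihood test. Alb, serum albumin, was at 22.8 to 44.0 CPM in vehicle and at 8.69 to 30.7 CPM in 7c kidneys, a log2 fold change of -1.08 ± 0.32. F2, prothrombin, stood at -2.10 ± 0.48, Ahsg, fetuin-A, at -2.20 ± 0.62, and Cps1, a urea cycle enzyme, at -2.99 ± 0.77, and these were the 4 with such a p. The other 5 stood at -1.20 ± 0.55 for Hpx, -0.94 ± 0.48 for Fgb, -0.08 ± 0.33 for Ttr, -0.03 ± 0.17 for Fga and 0.43 ± 0.80 for Serpina1a. The kidney of vehicle replicate 2, highest for Apoa1 and Apoa2, also had the highest summed hepatocyte markers of the vehicle kidneys. It was the highest of the 4 for Ttr, Serpina1a, Fgb and Ahsg, lay inside the range of the others for Alb (38.2 CPM), F2, Hpx and Fga, and was the lowest for Cps1 and Tat. The summed level of the list was 245 to 360 CPM in vehicle and 121 to 375 CPM in 7c kidneys, with Ttr as a large part, and Cps1 was at 0 counts in 2 of the 7c kidneys. The part of these transcripts in the values of Apoa1, Apoa2, Apoc1 and Apoa5 was not tested.

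The 6 genes of the higher kidney range had fitted values above vehicle, and none passed the test. Apoc3 was at 5.33, 9.36, 4.92 and 6.91 CPM in vehicle and at 5.40 to 13.4 CPM (median 10.7) in 7c kidneys. Of the 6 7c kidneys, 3 lay above the vehicle range, with a log2 fold change of 0.58 ± 0.29 (unadjusted p = 0.065, edgeR). Apoa4 was at 0.990 to 1.75 CPM in vehicle and 0.720 to 3.21 CPM in 7c kidneys, a log2 fold change of 0.67 ± 0.40. Apoe was at 136, 357, 182 and 151 CPM in vehicle and at 132 to 447 CPM (median 235) in 7c kidneys, 0.29 ± 0.33 on the log2 scale. That value was 0.05 without 7c replicate 5 and 0.70 without vehicle replicate 2. Apoh stood at 0.28 ± 0.29 (0.09 without vehicle replicate 3 and 0.48 without vehicle replicate 2), Apob at 0.17 ± 0.28 and Apom at 0.12 ± 0.28. For Apom the 95% interval was -0.48 to 0.73, so a difference of the size seen for Apoa1 lay outside it.

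**Figure D3:**
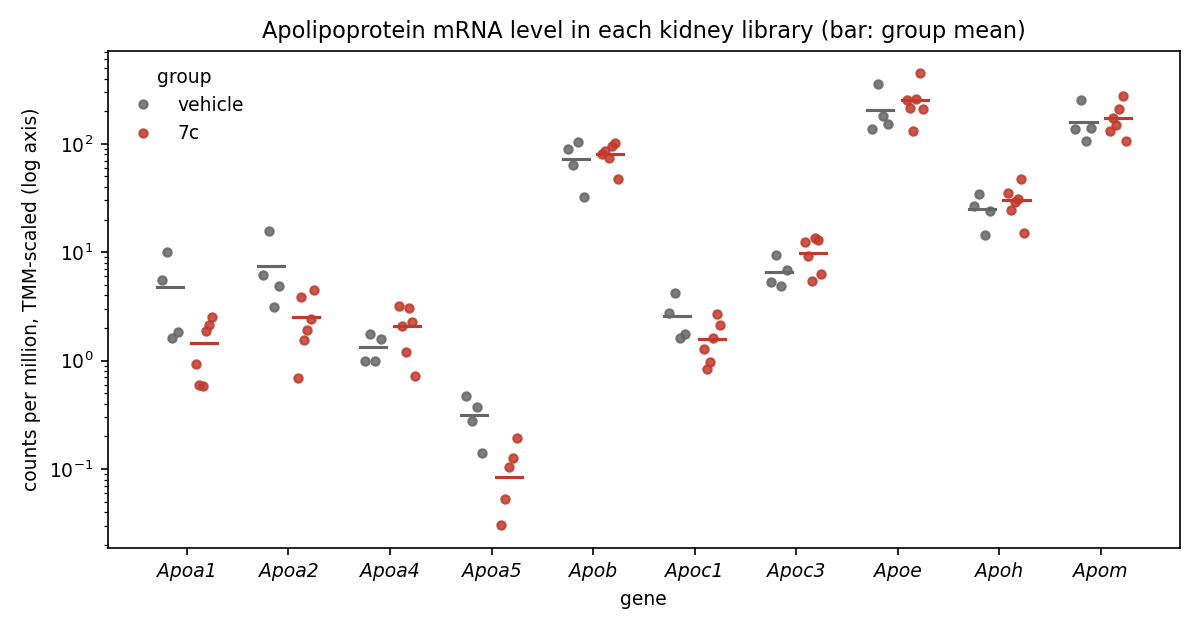
TMM-scaled CPM of the 10 genes in each kidney library on a log axis; grey points are 4 vehicle and red points 6 7c kidneys, bars are group means, and the 7c kidney with 0 Apoa5 counts is not drawn. Apoa1 and Apoa2 lie lower in 7c kidneys with overlapping groups, while Apoe, Apom and Apob overlap throughout.

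A pair of kidneys stood high for several of these genes at once. The kidney of 7c replicate 5 had the highest Apoe (447 CPM), Apom (275 CPM) and Apoh (46.9 CPM) of all 10 kidneys, and the kidney of vehicle replicate 2 was second for Apoe (357 CPM) and Apom (255 CPM). These 2 libraries also had the highest short-minus-long index, 0.56 and 0.54. With that index as a covariate, chosen after seeing the data, no gene of the set passed the test in either organ. The log2 fold changes in kidney were then 0.08 ± 0.13 for Apoe and -0.02 ± 0.13 for Apom. With the same covariate 4 of the 9 genes had an unadjusted p under 0.05 in place of 2, while the share of all genes rose from 2.61% to 5.08%. The 4 stood at -1.76 ± 0.46 for Apoa1, -1.51 ± 0.46 for Apoa2, -0.84 ± 0.30 for Apoc1 and 0.40 ± 0.17 for Apoc3, all at an adjusted p of 0.926 (edgeR).

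Adipocyte and blood markers also had higher fitted values in 7c kidneys, and none passed the adjusted edgeR quasi-likelihood test. All 6 adipocyte markers were higher (median log2 fold change 2.26) and all 6 had an unadjusted p under 0.05. Their summed level was 35.0 to 49.6 CPM in vehicle and 51.1 to 140 CPM in 7c kidneys, so the groups did not overlap, and the highest value was that of 7c replicate 5, which also had the most Apoe. The kidney of vehicle replicate 2, second for Apoe, was at 49.6 CPM. All 5 blood markers were higher (median log2 fold change 0.84), 0 with an unadjusted p under 0.05, and their summed level was 308 to 1309 CPM in vehicle and 471 to 2259 CPM in 7c kidneys. In both groups the library with the most Apoe had the highest blood sum. These 2 libraries also had the highest summed macrophage markers of the 10 kidneys, 209 and 191 CPM. Their summed kidney markers were the highest of the 10 as well, at 73193 and 64614 CPM. The next kidney, 7c replicate 4, stood at 51077 CPM. High sums in these 2 libraries were thus not limited to adipocyte, blood and macrophage markers. The part of these 3 cell types in the Apoe value was not tested.

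**Figure D4:**
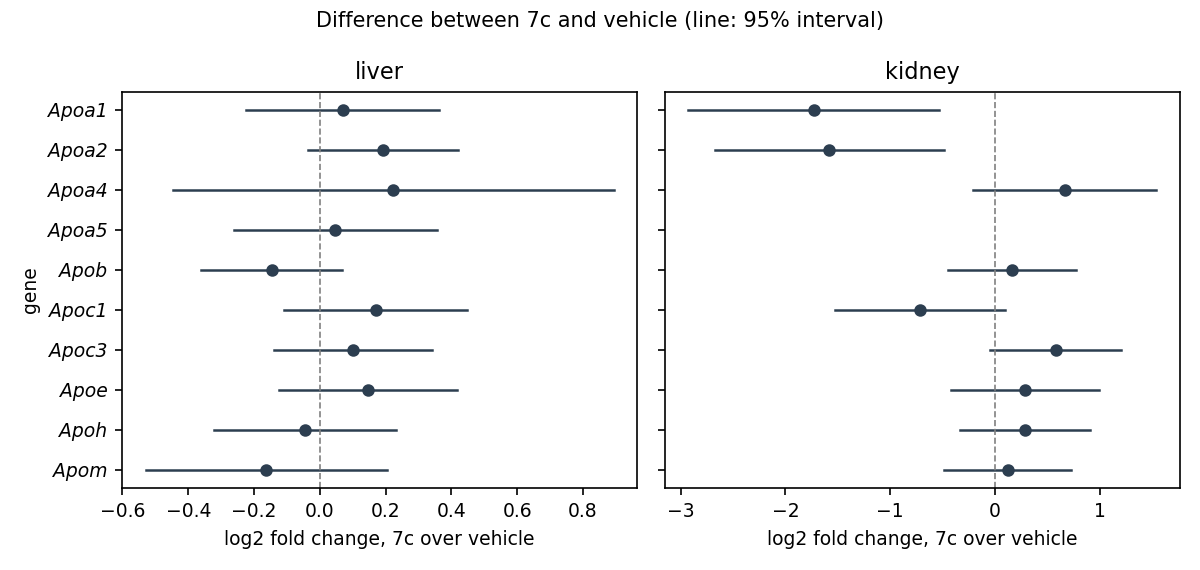
Log2 fold change of each gene between 7c and vehicle with its 95% interval, in liver (left) and kidney (right); the axes have different ranges, and Apoa5 was not tested in kidney. Intervals in liver all include 0, and in kidney those of Apoa1 (-2.93 to -0.53) and Apoa2 (-2.68 to -0.49) do not, before adjustment for multiple tests.

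The difference between the 2 organs in response to 7c was tested directly as an interaction term over all 20 libraries. Of the 9 genes tested 0 were called, where 0.00706% of 14163 genes were called (1 gene), and 3 of the 9 had an unadjusted p under 0.05 against 353 of all genes. DESeq2 and limma-voom called 0 of the 9 as well. The liver minus kidney log2 difference was 1.80 ± 0.59 for Apoa1, 1.78 ± 0.55 for Apoa2 and 0.88 ± 0.39 for Apoc1. Their adjusted p-values were 1.00 (edgeR). Without the kidney of vehicle replicate 2 these differences were 1.16, 1.13 and 0.56. The remaining 6 genes lay between -0.49 and -0.15.

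Across the 10 livers the genes differed in how much they varied. The SD of log2 CPM was lowest for Apob (0.15), Apoc3 (0.16) and Apoa2 (0.17), and highest for Apoa4 (0.59) and Apom (0.30), where the median gene stood at 0.30. Pearson's r between genes was then computed for all 45 pairs, with permutation tests of 100000 resamples. After Benjamini-Hochberg adjustment over the 45 pairs, 2 passed. Apoe and its neighbour Apoc1 had r = 0.88 (adjusted permutation p = 0.0346) and Spearman's rho = 0.78 (adjusted permutation p = 0.0796). Without the 2 livers farthest from the median of Apoc1, r was 0.69, and it was 0.93 within the 6 7c livers. Apoe and Apoa5 had r = 0.85 (adjusted permutation p = 0.045) and rho = 0.87 (adjusted permutation p = 0.0495), with r = 0.61 without the 2 livers farthest from the median of Apoa5. Apoe and Apoa2 had r = 0.83 (adjusted permutation p = 0.0532) and rho = 0.87 (adjusted permutation p = 0.0495). Apob ran the other way: its r was -0.73 with Apoa2 (adjusted permutation p = 0.109), -0.64 with Apoc3 and -0.62 with both Apoe and Apoc1 (adjusted permutation p = 0.153 for each).

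The short-minus-long index moved with the values of most of these genes. The livers of 7c replicates 1 and 3, with the highest indices (0.30 and 0.20), had the highest Apoe (19179 and 21375 CPM) and Apoc1 (2429 and 2638 CPM). By contrast 7c replicate 2, whose liver had the lowest index (-0.24), had the lowest Apoe (13748 CPM) and the lowest Apoc1 (1656 CPM). Apob, by far the longest transcript of the set, was lowest in 7c replicate 1 at 3372 CPM. Over the 10 livers, r with the index was 0.885 for Apoa2, 0.884 for Apoe, 0.826 for Apoc1 and -0.768 for Apob. It was 0.486 for Apoa4 and 0.147 for Apom, and the remaining genes lay between 0.575 and 0.724. The part of the index in the correlations was not tested.

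**Figure D5:**
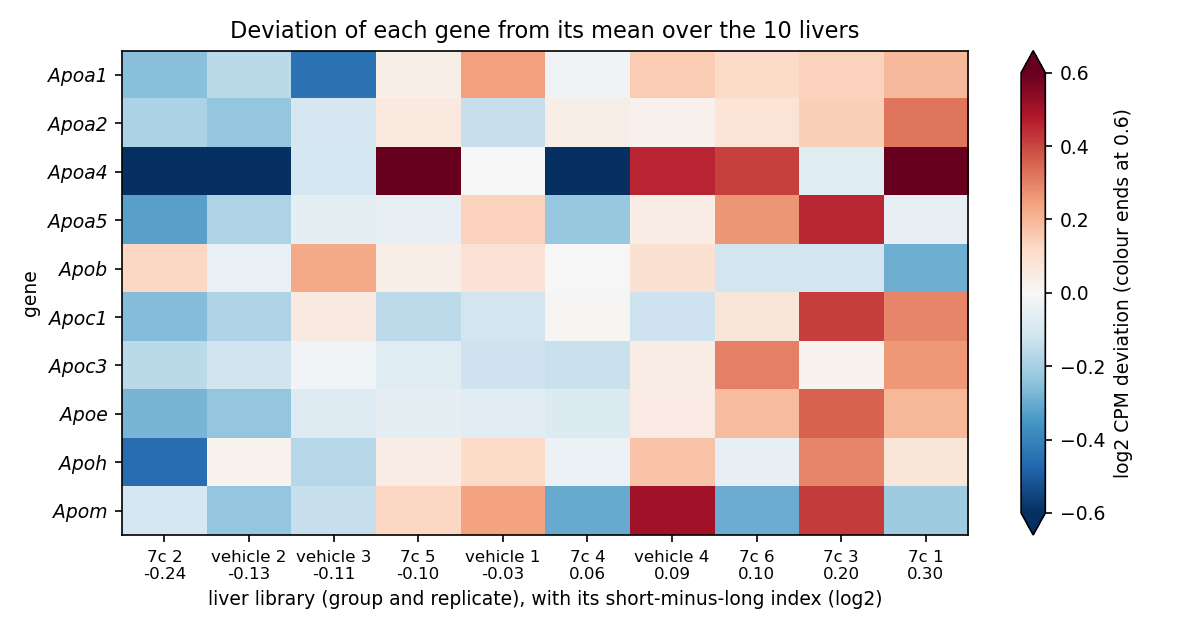
Log2 CPM of each gene (rows) as a deviation from its own mean over the 10 livers, with the liver libraries (columns) ordered by the short-minus-long index printed under each. Apoe and Apoc1 are lowest in the library at the left end and highest in the 2 at the right end, while Apob is lowest at the right end.

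Outside the set, the genes that ran most like each member over the 10 livers were taken by Pearson's r of log2 CPM. For Apoe these were Abhd11 (r = 0.96) and Ndufb9 (r = 0.957), for Apoc1 Ndufa7 (0.972) and Ttc36 (0.957), and for Apoa2 Rfxank (0.968) and Rhbdd3 (0.933). For Apob they were Arih1 (r = 0.976) and Pdik1l (0.956), for Apoa1 Cct8 (0.939) and Elk4 (0.931), and for Apoh Psmb1 (0.956) and Armc10 (0.948). For Apoa5 they were Ldha (r = 0.933) and Abcd2 (0.916), for Apoc3 Fadd (0.926) and Commd6 (0.916), for Apoa4 Gsn (0.92) and Prss8 (0.918), and for Apom Yipf2 (0.918) and Nrf1 (0.878). These are the highest of all genes tested, all 10 livers share the index above, and no p is given.

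Genes that build, remodel or take up the particles were counted from 6 further lists. In both organs 0 of their genes passed the adjusted edgeR test between 7c and vehicle. In liver 12 genes of particle assembly and secretion had a median log2 fold change of 0.03, and Cideb, which loads lipid onto the particle, had the lowest p (0.30 ± 0.19). For 7 genes of high density lipoprotein formation the median was 0.07, with Abcg1, a cholesterol exporter, at 0.47 ± 0.24. For 6 genes of plasma triglyceride clearance it was 0.01, with Lpl, lipoprotein lipase, at 0.55 ± 0.34. For 11 tested genes of receptors and their regulators it was 0.11, with Sort1, an intracellular sorting receptor, at 0.36 ± 0.22. Of 16 transcription factors that act on apolipoprotein genes, 1 had an unadjusted p under 0.05: Nr5a2, the liver receptor homolog, at -0.29 ± 0.11 (unadjusted p = 0.0179, edgeR). Of 6 tested further apolipoproteins, Apoc4 had the lowest p, at 0.18 ± 0.13.

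In kidney the same lists had medians between -0.03 and 0.18 on the log2 scale. The genes with the lowest p were Dgat1 (0.24 ± 0.13), an enzyme of triglyceride synthesis, Pltp (0.37 ± 0.22), the phospholipid transfer protein, and Gpihbp1 (0.57 ± 0.29), which anchors lipoprotein lipase to capillaries. They were followed by Ppara (-0.49 ± 0.24), a fatty acid-sensing receptor, and by Clu (0.17 ± 0.13), clusterin. None had an unadjusted p under 0.05. In the vehicle mice the receptors split between the organs: Lrp2 was lower in liver by a log2 difference of -10.11 ± 0.35, while Lrp1 (4.33 ± 0.20) was higher there. Cubn held 9714 to 13082 counts in the vehicle kidneys, and in the vehicle livers it was at 0 counts in 3 libraries and at 4 counts in the other. Mttp, which lipidates Apob, was higher in liver by 3.77 ± 0.18. Hnf4a, a regulator of many apolipoprotein genes, stood at -0.11 ± 0.16 between the 2 organs (adjusted p = 0.598, edgeR). This too depends on the scaling: with total counts in place of TMM factors Hnf4a was lower in liver, at -0.72 ± 0.15 (adjusted p = 0.00175, edgeR).

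For the remaining marker lists, 0 genes passed the adjusted edgeR quasi-likelihood test in either organ. The alternative tools, which called more genes in kidney, were not read for these lists. The study's own edgeR analysis listed F2 and Cidec as differentially expressed in kidney. In liver the lowest p of each list belonged to Hpx (0.20 ± 0.10) for hepatocytes, Cidec (0.52 ± 0.40) for adipocytes, Marco (0.98 ± 0.91) for macrophages, Hba-a1 (0.86 ± 0.43) for blood and Mylpf (3.26 ± 1.39) for skeletal muscle. The Mylpf value rested on the liver of 7c replicate 6, at 1246 counts where the other 9 livers had at most 54, and without that library it was -0.09 ± 0.56. In kidney it belonged to F2 for hepatocytes, Cidec (2.55 ± 0.60) for adipocytes, Csf1r (-0.20 ± 0.10) for macrophages, Alas2 (0.84 ± 0.44) for blood and Mylpf (0.25 ± 0.31) for skeletal muscle.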

How the data were processed

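RNA was sequenced from liver and kidney of 10 mice with TruSeq Stranded mRNA libraries. The authors deposited raw counts per gene, made by aligning reads to GRCm39 and counting them on genes; the submitters' processing notes name STAR 2.7.11b and featureCounts 2.0.6. The annotation release and strand setting are not given in the sources used here. No row named no gene, and all 20 columns matched a sample. Counts that are mostly even in the low range lower the precision below that of the printed totals.

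Genes were named by identifier from GENCODE release 39 for the mouse (56310 of 57010 matched). A gene was kept for an organ where 50% or more of its libraries held 10 or more counts. Main tests were edgeR 4.0.16 quasi-likelihood fits in R 4.3.3 with TMM scaling, over livers, over kidneys, over all libraries (treatment, tissue and their interaction) and over vehicle libraries. P-values were Benjamini-Hochberg adjusted over all genes tested, and 0.05 was the threshold. Standard errors came from the fold change and F statistic. Log2 CPM used a prior count of 2. Single genes were also tested by exact permutation. DESeq2 1.42.0, limma 3.58.1 and other settings were alternatives, and fits were tested on simulated data.

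Named were the 10 genes, from each of 12 further lists every gene passing the test and otherwise the one with the lowest p in each organ (some are not reported here), and for each member the 2 genes most alike over livers. Receptor, assembly and factor genes of the organ comparison and the hepatocyte markers were chosen with their values in view. The members and lists were chosen with earlier results of these data known. No 2 libraries of an organ agreed within sampling noise. The replicates are separate mice.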

Additional observations from a re-analysis of the deposited data

How the results depend on the processing

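Under all alternatives, 0 members were called between 7c and vehicle in liver, in kidney and in the interaction, and 9 members between the organs, except 10 without the kidney of vehicle replicate 2. The number of all genes called in liver, 1, became 6 with DESeq2, 7 with the likelihood ratio test, 4 without a filter, 2 with filterByExpr and 0 with a replicate block, and 0 to 2 when 1 library was left out. In kidney, 0 became 18 with DESeq2, 14 with the likelihood ratio test, 2 with limma-voom, 3 without a filter and 1 with the length index as a covariate (chosen after seeing the data), and 0 to 3 when 1 library was left out. The cause of these moves was not tested. With RLE size factors 3 pairs of members passed in place of 2.

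Small log2 fold changes reversed. In liver these were Apoa4 (-0.098) and Apoa5 (-0.023) with the replicate block, Apoa1 (-0.018) and Apoa5 (-0.051) with the length index, and, leaving out 1 library, Apoa1 (-0.042 to 0.17), Apoa5 (-0.048 to 0.11) and Apoh (-0.11 to 0.032). Those of Apoe (0.085 to 0.21), Apoc1 (0.097 to 0.23), Apoc3 (0.046 to 0.14) and Apob (-0.19 to -0.095) moved but kept their sign in liver when 1 library was left out. Reversed in kidney were Apom with the length index (-0.018) and, leaving out 1 library, Apom (-0.054 to 0.45) and Apob (-0.075 to 0.39). In the interaction Apoe ran from -0.53 to 0.091. Between the organs Apom reversed with total counts without TMM (-0.0014, chosen after seeing the data). Outside the set, Mylpf in liver reversed without 7c replicate 6 (-0.090, and -0.08 with no filter as well). Left-out libraries moved the kidney values of Apoa1 from -2.02 to -1.06 and of Apoa2 from -1.84 to -0.91, both weakest without vehicle replicate 2.

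Same-numbered livers and kidneys are not labelled as 1 mouse. Their deviations from group means had r of 0.01 to 0.26 over 10 pairs, and 8 of 10 livers were most like the kidney of their own number. With a replicate block that joins these, 9 members were called between the organs and 0 in the interaction. Within an organ, the replicate block joins 7c and vehicle mice that share only a number, and 0 of 4 pairs in liver and 1 of 4 in kidney were most like their own number. That block called 0 members in either organ, and 5 of 9 kidney members had an unadjusted p under 0.05 in place of 2, against 2.15% of all genes in place of 2.61%. Depth limits Apoa5 in kidney, at 0 to 18 counts.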

Other observations

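Apolipoproteins outside the set of 10 also differed widely from each other in kidney level. As a percent of the vehicle liver mean, vehicle kidneys held Apof at 0.0144%, Apoc4 at 0.0276%, Apon at 0.0343%, Saa4 at 0.132% and Clu at 14.0%. In 7c kidneys the same means were 0.0111% for Apof, 0.00515% for Apoc4, 0.00899% for Apon, 0.0881% for Saa4 and 16.0% for Clu. Apoc2 was at 0 counts in all 10 kidneys and at 3.31 ± 0.907 CPM (SD, n = 4) in vehicle livers. Overlapping genes were looked up only for the set of 10, so the part of such overlaps in the Apoc2 counts was not tested. Apod was the only one of this list called lower in vehicle liver than in vehicle kidney (adjusted p = 0.00157, edgeR). It was at 0 counts in all 4 vehicle livers and at 12 to 42 counts in the vehicle kidneys, so no fold is given.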
